A study of Homo sapiens with 24 samples.

Results

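The genes described here are 5 members of the fibroblast growth factor (FGF) family, FGF2, FGF4, FGF8, FGF13 and FGF19, and the 4 FGF receptors FGFR1, FGFR2, FGFR3 and FGFR4. They were chosen by name, as the rows of the deposited array table annotated to these 9 symbols. No measured value entered the rule, but earlier results of these data were known when the genes were chosen. The rule found 16 of 37900 rows. Repeated rows with identical values were counted once, which left 14 measurements of 9 of the 17760 named genes. FGF13 and FGFR4 each had a measurement that stood in 2 rows. Testing needed 4 or more arrays above background. FGF2, FGF8, FGFR1, FGFR3 and FGFR4 met this, 5 of the 9, and 10215 genes did in all.

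The samples were total RNA of H1 cells, an established human embryonic stem cell line, hybridised to bead arrays of the Illumina HumanHT-12 v4 type at 0, 12, 24, 36, 48 and 72 h of an induction with dorsomorphin. Dorsomorphin, also named compound C, blocks type I BMP receptors and AMPK, and the study used it to convert the cells to neural stem cells. Each time had 4 arrays, labelled replicates 1 to 4. Cells grew to confluency on Matrigel in mTeSR, a defined stem cell medium that is supplied with FGF2, and were then moved to DMEM/F12 with KSR, for which the labels list no FGF. No cells without the compound were sampled after 0 h, so time, the change of medium and the compound cannot be told apart in any difference from 0 h. The labels do not say that the replicates were separate cultures, so p-values reflect the variation among these arrays alone, and this variation may be technical.

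FGFs are secreted proteins that bind receptor tyrosine kinases together with heparan sulfate, and the activated receptor signals mainly through RAS and ERK, which in turn switch on inhibitors of the same pathway. FGF2 is the factor that keeps human embryonic stem cells undifferentiated in culture, and in chick and mouse embryos FGF signals take part in the induction and the anterior patterning of the neural plate. FGF13 differs from the other 4 ligands in that it is not secreted and binds voltage-gated sodium channels and microtubules inside the cell.

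Signals are given on the log2 scale as deposited. Background was taken as 7.10, the 99th percentile of 387 olfactory receptor measurements, and between 9251 and 9474 genes lay above it on an array. Within a time, pairs of arrays had a median r of 0.991 over all measurements. The H1 label was checked against markers. At 0 h, 11 of 11 measured pluripotent stem cell markers lay above background on 4 of 4 arrays, among them POU5F1 at 12.36 ± 0.09, SOX2 at 12.07 ± 0.31 and NANOG at 8.96 ± 0.17 (SD, n = 4). Of the markers of other lineages, TBXT, SOX17 and GATA3, which mark primitive streak, endoderm and trophoblast, lay below background on all 24 arrays. AFP on the endoderm list (8.05 ± 0.35) and KDR on the primitive streak and mesoderm list (7.92 ± 0.30) lay above background on 4 of 4 arrays at 0 h. CXCR4 on the endoderm list (8.05 ± 0.22) and SOX10 on the neural crest list (7.90 ± 0.38) did so at 72 h. At each time 1 array stood apart, with a CLEC2A signal of 7.17 to 7.56 against 9.10 to 10.71 on the other 18 arrays, and the deviations of these 6 arrays from their time correlated at a median r of 0.431. They were replicate 2 at 0, 24 and 72 h and replicate 4 at 12, 36 and 48 h. This set was defined after the values were seen, and results that it moves are given with and without it.

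The promoters of FGF2, FGFR3 and FGFR4 are shown because these 3 genes carried the called changes of bright signals described below. Each line holds the 250 bases before the gene's start in RefSeq (GRCh38.p14), all on the plus strand, at chr4:122826581-122826830 for FGF2, chr4:1793043-1793292 for FGFR3 and chr5:177086665-177086914 for FGFR4, where FGFR4's is 1 of 2 starts listed. Capitals mark the GC box GGGCGG, the core site of SP1-like factors, and its opposite-strand form CCGCCC.
FGF2: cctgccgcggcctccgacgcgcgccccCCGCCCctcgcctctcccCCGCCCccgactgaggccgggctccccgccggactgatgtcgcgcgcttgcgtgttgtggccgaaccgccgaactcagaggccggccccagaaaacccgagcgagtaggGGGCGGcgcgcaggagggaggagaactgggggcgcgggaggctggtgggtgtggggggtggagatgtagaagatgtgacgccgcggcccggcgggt
FGFR3: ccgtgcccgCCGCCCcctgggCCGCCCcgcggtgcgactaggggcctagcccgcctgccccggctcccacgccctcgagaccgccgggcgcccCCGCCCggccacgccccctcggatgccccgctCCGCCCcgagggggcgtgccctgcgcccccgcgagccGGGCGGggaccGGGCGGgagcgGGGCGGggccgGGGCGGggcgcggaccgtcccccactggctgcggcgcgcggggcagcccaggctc
FGFR4: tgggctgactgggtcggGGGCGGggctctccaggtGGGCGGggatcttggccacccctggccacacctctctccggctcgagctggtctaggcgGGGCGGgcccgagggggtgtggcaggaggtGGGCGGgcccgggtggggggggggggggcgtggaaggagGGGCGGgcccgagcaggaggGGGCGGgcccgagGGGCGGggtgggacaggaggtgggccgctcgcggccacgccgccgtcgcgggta
The windows were rich in G and C, with 86.8% in FGFR3, 79.6% in FGFR4 and 75.2% in FGF2. FGFR3 held 8 GC boxes, FGFR4 held 7 and FGF2 held 3. A GC box stood in 42.6% of the 35116 promoter windows of the table, so its presence is common. RefSeq windows were examined for 5 of the 9 genes, 11 windows in all with FGF13 and FGFR2, and not for the other genes. None of the 11 held the cores CCGGAA (ETS factors), ACAATG (SOX factors), TGCAAAT (octamer of POU factors) or TAATCC (OTX factors) on either strand. Among all windows these stood in 14.5%, 9.29%, 3.67% and 5.62%.

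**Figure D1:**
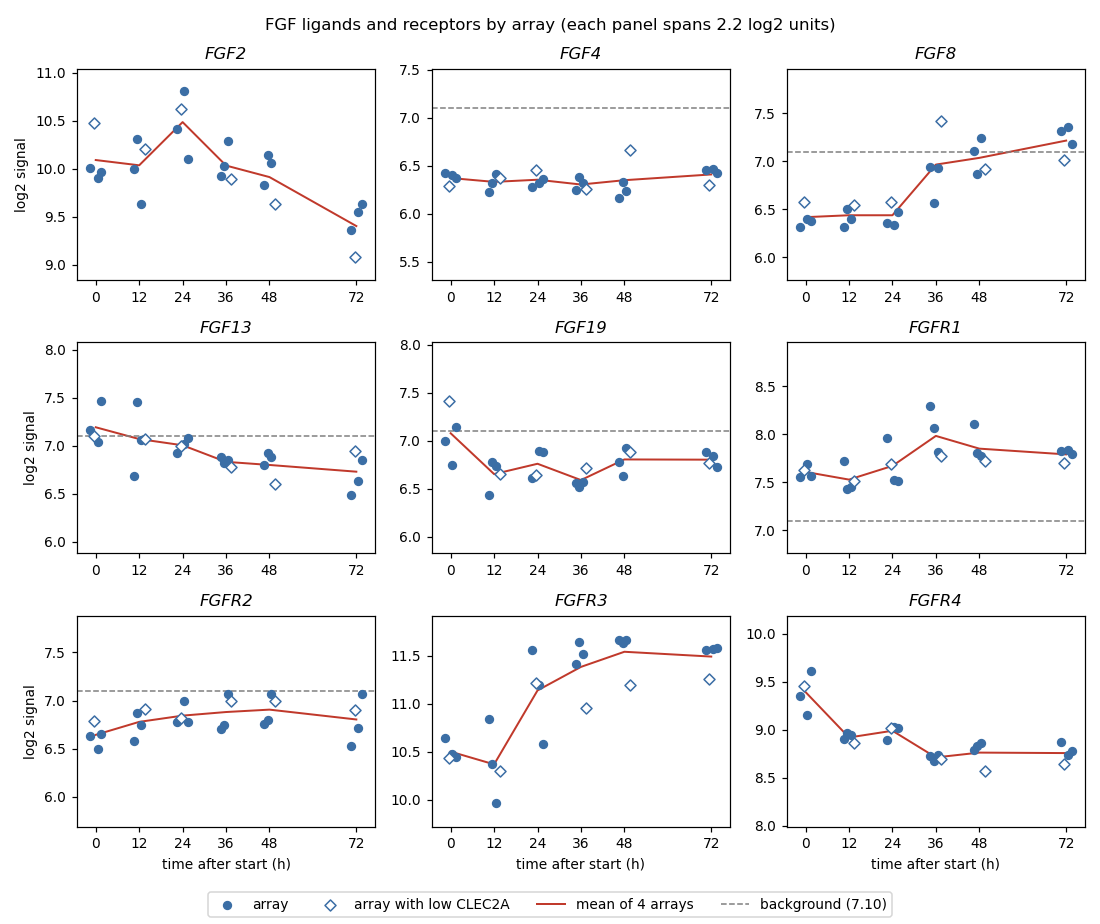
Log2 signal of the 9 genes (vertical axes, each spanning 2.2 log2 units) against hours after the start of induction. Points are arrays, open diamonds are the 6 arrays with low CLEC2A, the line joins the means of 4 arrays and the dashed line is the background of 7.10. FGFR3 lies higher and FGFR4 lower from 36 h onward than on any array at 0 h. No overlap with 0 h was found for 17.4% of genes tested at 36 h, 20.8% at 48 h and 31.1% at 72 h.

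Across the whole course, all 4 genes that lay above background on 24 of 24 arrays (FGF2, FGFR1, FGFR3 and FGFR4) differed between times by the moderated F test of limma, with Benjamini-Hochberg adjustment over all genes tested, a test that 48.9% of those genes passed. FGF8 entered this test only through arrays at 36 h and later, where it was high, so its result is taken from a fit of all 17760 named genes with no filter, in which 29.2% of genes passed. Adjusted p was 0.000341 for FGF2, 0.016 for FGFR1, 4.75e-06 for FGFR3, 6.4e-06 for FGFR4, and, in the fit of all named genes, 7.04e-06 for FGF8. The 2 receptors with the clearest changes moved in opposite directions. FGFR3 rose and FGFR4 fell, FGF2 fell late, and FGF8 came up from below background.

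**Figure D2:**
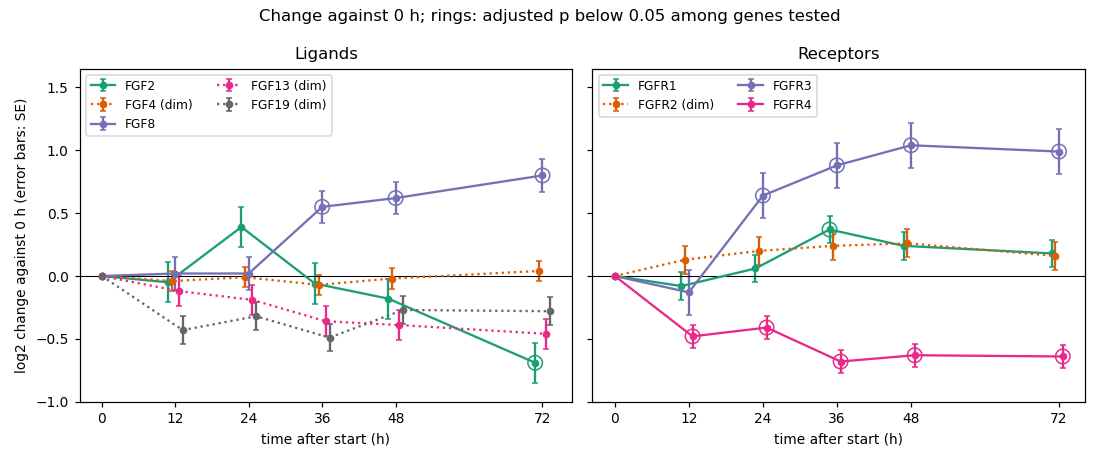
Log2 change against 0 h (vertical axes) over time, for 5 ligands on the left and 4 receptors on the right. Bars are standard errors of the fit, rings mark an adjusted p below 0.05 among genes tested (FGF8 entered only through its later arrays), and dotted lines are genes that were too dim to be tested. FGFR3 reached 1.04 at 48 h while FGFR4 stood at -0.63.

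FGF2, the ligand supplied in stem cell medium and also made by the cells themselves, was bright on every array. Its log2 signal was 10.01, 10.48, 9.91 and 9.97 at 0 h, 10, 10.31, 9.63 and 10.21 at 12 h, then 10.42, 10.62, 10.81 and 10.10 at 24 h. It was 9.93, 10.03, 10.29 and 9.89 at 36 h, 9.83, 10.14, 10.06 and 9.63 at 48 h, then 9.36, 9.08, 9.55 and 9.63 at 72 h. All 4 arrays at 72 h lay below all 4 at 0 h, whereas each time between overlapped with 0 h. FGF2 averaged 9.41 ± 0.24 at 72 h and 10.09 ± 0.26 at 0 h (SD, n = 4 each), and fell by 0.69 ± 0.16 (SE; 1.61-fold; limma adjusted p = 0.00188). Groups of 4 arrays that did not overlap between 72 h and 0 h were found for 31.1% of genes tested.

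The highest mean of FGF2 was at 24 h, at 10.49 ± 0.30, and its difference from 0 h of 0.39 ± 0.16 did not pass (adjusted p = 0.161). Counted from that time, FGF2 was 0.57 lower on the log2 scale at 48 h (adjusted p = 0.0291) and 1.08 lower at 72 h (adjusted p = 1.83e-05). That time was picked after the means were seen, which favours a fall from it, and these p-values do not allow for the choice. No step between neighbouring times passed, with adjusted p = 0.0961 for 24 h against 12 h, 0.0652 for 36 h against 24 h and 0.0686 for 72 h against 48 h. Leaving out replicate 4 at 48 h or replicate 3 at 12 h brought the last of these past the threshold (adjusted p = 0.032 and 0.0484), and the same was so for 36 h against 24 h without replicate 3 at 12 h, replicate 4 at 24 h or replicate 3 at 36 h (0.0482, 0.0441 and 0.0494). The change at 72 h was smaller without the 6 low-CLEC2A arrays, at -0.45 (adjusted p = 0.041), and it did not pass within replicates 3 and 4 alone (-0.35, adjusted p = 0.374).

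FGF8, a secreted morphogen of the anterior neural ridge and the midbrain-hindbrain boundary in mouse and chick embryos, appeared late and at a low level. The log2 signal of FGF8 was 6.31, 6.58, 6.40 and 6.38 at 0 h, 6.31, 6.50, 6.40 and 6.54 at 12 h, then 6.36, 6.58, 6.34 and 6.47 at 24 h. It was 6.94, 6.57, 6.93 and 7.42 at 36 h, 7.11, 6.87, 7.24 and 6.92 at 48 h, then 7.31, 7.01, 7.36 and 7.18 at 72 h. The arrays up to 24 h all lay below background, and 1 array at 36 h, 2 at 48 h and 3 at 72 h lay above it. The 1 at 36 h was replicate 4, the low-CLEC2A array of that time, which stood 0.61 above the mean of the others. FGF8 was highest on the low-CLEC2A array at 4 of 6 times and lowest on it at 1. Replicate 2 at 36 h stayed within the range of 0 h, while all arrays at 48 and 72 h were above that range. Among genes tested, 20.8% did not overlap with 0 h at 48 h and 31.1% at 72 h.

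In the fit of all named genes, which no filter had selected, the signal of FGF8 differed from 0 h by 0.55 ± 0.12 at 36 h (SE; adjusted p = 0.00445; 4.26% of genes were higher), 0.62 ± 0.12 at 48 h (adjusted p = 0.00106; 6.06%) and 0.80 ± 0.12 at 72 h (adjusted p = 2.74e-05; 10.8%). These are differences of signals that lay mostly below background, and their sizes are not fold changes of FGF8 RNA. With 0 h held at the background, the mean at 72 h was at least 1.08-fold higher, and no fold can be given for 36 and 48 h, whose means lay below background. With every value below background set to it, FGF8 passed at none of these times (0.14 and adjusted p = 0.131 at 72 h). Another FGF8 measurement, annotated to a different transcript, was as dim, between 5.97 and 7.16 over the 24 arrays. Its means differed from 0 h by 0.76 at 36 h, 0.75 at 48 h and 0.83 at 72 h.

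The other 3 FGF family genes were too dim to be tested. FGF4, which is secreted by pluripotent cells of the mouse embryo, lay below background on all 24 arrays, between 6.16 and 6.66. FGF19, the endocrine FGF that signals through FGFR4 with beta-klotho, lay above background on 2 of 24 arrays, both at 0 h. Its log2 signal was 7.00, 7.42, 6.75 and 7.15 at 0 h, and no later array exceeded 6.93. FGF13 lay above background on 3 arrays, replicates 1 and 4 at 0 h and replicate 2 at 12 h, with 7.16, 7.10, 7.04 and 7.47 at 0 h and 6.49, 6.95, 6.63 and 6.85 at 72 h. These values show dim signals near background at the start and below it later.

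When all 17760 named genes were fitted with no filter, FGF13 differed from 0 h by -0.39 ± 0.12 at 48 h (adjusted p = 0.0344) and by -0.46 ± 0.12 at 72 h (adjusted p = 0.0068). In that fit 6.17% of genes were lower at 48 h and 10.4% at 72 h. Held at background at 72 h, FGF13 was at least 1.07-fold lower there, counted from its mean at 0 h of 7.19 ± 0.19 (SD). Only 2 of 4 arrays at 0 h lay above background, so this bound is uncertain. FGF19 differed by -0.43 ± 0.11 at 12 h (adjusted p = 0.0309; 1.86% of genes were lower), -0.49 ± 0.11 at 36 h (adjusted p = 0.00457; 5.5%) and -0.28 ± 0.11 at 72 h (adjusted p = 0.0772). No fold can be given for FGF19, whose mean at 0 h, 7.08, itself lay below background. FGF4 did not pass the F test of that fit (adjusted p = 0.94), in which 29.2% of named genes passed.

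Among the receptors, FGFR3, a receptor tyrosine kinase present in neural progenitors of the mouse brain, had the largest rise among them. Its log2 signal was 10.64, 10.44, 10.48 and 10.45 at 0 h, 10.84, 10.37, 9.97 and 10.30 at 12 h, then 11.56, 11.22, 11.20 and 10.58 at 24 h. It was 11.42, 11.64, 11.52 and 10.96 at 36 h, 11.67, 11.63, 11.67 and 11.20 at 48 h, then 11.56, 11.26, 11.57 and 11.58 at 72 h. At 24 h, 3 arrays lay above the range of 0 h and replicate 4 lay inside it, and from 36 h every array lay above that range. Arrays did not overlap with 0 h for 17.4% of genes tested at 36 h, 20.8% at 48 h and 31.1% at 72 h. Most of the rise fell between 12 and 24 h, a step of 0.77 ± 0.18 (SE; adjusted p = 0.0134).

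FGFR3 rose by 0.64 ± 0.18 at 24 h (adjusted p = 0.0268), 0.88 ± 0.18 at 36 h (adjusted p = 0.000909), 1.04 ± 0.18 at 48 h (2.06-fold; adjusted p = 0.000108) and 0.99 ± 0.18 at 72 h (adjusted p = 9.33e-05). It averaged 11.49 ± 0.15 at 72 h and 10.50 ± 0.09 at 0 h (SD, n = 4 each). At 12 h it stood at -0.13 ± 0.18 (adjusted p = 0.743), and no difference among 24, 36, 48 and 72 h passed. The call at 24 h was lost without replicate 2, 3 or 4 at 0 h (adjusted p = 0.0576, 0.0624 and 0.0557) and without replicate 1, 2 or 3 at 24 h (0.118, 0.0535 and 0.0621), and the step from 12 h without replicate 1 at 24 h (0.0553). The low-CLEC2A array was the lowest for FGFR3 at 4 of 6 times, by 0.56 below the mean of the others at 36 h, and without these arrays the change was 0.59 at 24 h (adjusted p = 0.0631), 1.00 at 36 h, 1.13 at 48 h and 1.05 at 72 h (adjusted p = 0.000228).

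FGFR4, the receptor of FGF19 and a receptor tyrosine kinase of endoderm and liver, moved the other way and moved early. Its log2 signal was 9.35, 9.46, 9.15 and 9.61 at 0 h, 8.90, 8.97, 8.95 and 8.86 at 12 h, then 8.89, 9.02, 9.03 and 9.02 at 24 h. It was 8.73, 8.68, 8.74 and 8.70 at 36 h, 8.79, 8.83, 8.86 and 8.57 at 48 h, then 8.87, 8.64, 8.74 and 8.78 at 72 h. Every later array lay below the lowest array of 0 h, 9.15. Groups that did not overlap with 0 h were found for 8.58% of genes tested at 12 h, 10.7% at 24 h, 17.4% at 36 h, 20.8% at 48 h and 31.1% at 72 h.

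FGFR4 fell by 0.48 ± 0.09 at 12 h (SE; 1.39-fold; adjusted p = 0.0018), and among the 5 genes tested it was the only one past the threshold at that time, where 3.32% of genes tested were lower and 2.76% higher. It fell by 0.41 ± 0.09 at 24 h (adjusted p = 0.00559), 0.68 ± 0.09 at 36 h (1.6-fold; adjusted p = 6.56e-06), 0.63 ± 0.09 at 48 h (adjusted p = 1.06e-05) and 0.64 ± 0.09 at 72 h (adjusted p = 4.5e-06). FGFR4 averaged 8.76 ± 0.10 at 72 h and 9.39 ± 0.19 at 0 h (SD, n = 4 each). A further step of -0.28 ± 0.09 separated 36 h from 24 h (adjusted p = 0.0389), and all 4 arrays at 36 h lay below those at 24 h. This step did not pass without replicate 2, 3 or 4 at 24 h (adjusted p = 0.0564, 0.0914 and 0.107), without any replicate of 36 h (0.0594 to 0.0792) or without the low-CLEC2A arrays (0.0892). The changes against 0 h at 12 and 24 h did not pass within 2 replicates a time, replicates 1 and 2 or replicates 3 and 4, but kept their size (-0.47 and -0.48 at 12 h).

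FGFR1, the receptor through which FGF2 mainly acts in many cell types, lay above background on all arrays and changed less than FGFR3 and FGFR4. Its log2 signal was 7.55, 7.63, 7.69 and 7.56 at 0 h, 7.72, 7.43, 7.45 and 7.51 at 12 h, then 7.96, 7.69, 7.52 and 7.51 at 24 h. It was 8.29, 8.06, 7.81 and 7.77 at 36 h, 8.11, 7.80, 7.77 and 7.72 at 48 h, then 7.83, 7.70, 7.84 and 7.79 at 72 h. From 36 h on, each array lay above the 4 arrays at 0 h, which spanned 7.55 to 7.69. A lack of overlap with 0 h was found for 17.4% of genes tested at 36 h, 20.8% at 48 h and 31.1% at 72 h. FGFR1 rose by 0.37 ± 0.11 at 36 h (SE; 1.29-fold; adjusted p = 0.0258), and stood at 0.24 ± 0.11 at 48 h (adjusted p = 0.145) and 0.18 ± 0.11 at 72 h (adjusted p = 0.232). The call at 36 h was lost without replicate 1 or 4 at 0 h (adjusted p = 0.0709 and 0.069) and without replicate 1 or 2 at 36 h (0.129 and 0.0679), and the change was 0.16 within replicates 3 and 4 (adjusted p = 0.512). The step of 0.31 ± 0.11 from 24 to 36 h did not pass with all arrays (adjusted p = 0.0656) and passed without replicate 1 at 24 h or replicate 3 or 4 at 36 h (0.0272, 0.0492 and 0.0436).

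FGFR2, a receptor whose splice forms divide FGFs between epithelium and mesenchyme, lay below background on all 24 arrays, between 6.50 and 7.07. In the fit of all named genes its differences from 0 h ranged from 0.13 to 0.26 and none passed (adjusted p = 0.136 at 48 h, the lowest). No fold is given, as both sides were below background.

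Set together at each time, 1 of the 5 genes tested was lower and 0 higher at 12 h. At 24 h, 1 was higher (3.97% of genes tested were) and 1 lower (3.24%). At 36 h, 3 were higher (7.96%) and 1 lower (9.07%), at 48 h, 2 were higher (10.7%) and 1 lower (10.5%), and at 72 h, 2 were higher (18.5%) and 2 lower (17.4%). Between neighbouring times, 1 of 5 changed from 12 to 24 h (6.57% of genes tested), 2 from 24 to 36 h (14.4%), 0 from 36 to 48 h (5.27%) and 0 from 48 to 72 h (6.21%). In limma, the unadjusted p was below 0.05 for 0 of the 5 in the step to 48 h and for 1, FGF2, in the step to 72 h. The counts of higher genes at 36, 48 and 72 h, and that of the step from 24 to 36 h, include FGF8, which was among the genes tested only through those later arrays.

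The orders of times given here rest on the same means that are then compared, so they are only a description. Ordered by their means, the times fell into a later and an earlier block for FGFR3, with 48, 72, 36 and 24 h above 0 and 12 h. The only pair of neighbours in that order that passed was 24 h against 0 h. That call was lost when some single arrays were left out, as given above. For FGFR4 the order was 0, 24, 12, 48, 72 and 36 h, and again only the step next to 0 h passed. For FGF8 no order is given, since 5 of its 6 means lay below background. For FGF2 (24, 0, 12, 36, 48 and 72 h) and FGFR1 (36, 48, 72, 24, 0 and 12 h) no neighbours in the order differed past the threshold.

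**Figure D3:**
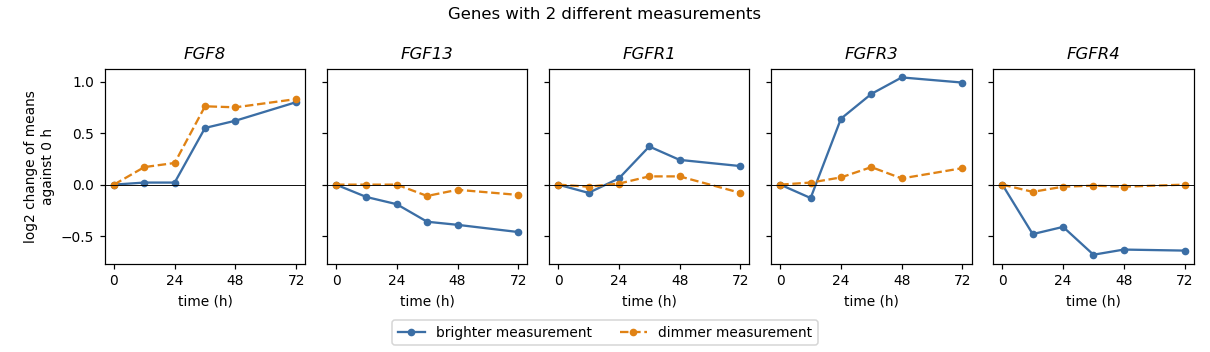
Log2 change of the mean against 0 h (vertical axis) over time for the 5 genes with 2 different measurements, the brighter one as a solid line and the dimmer one dashed. The 2 lines run together for FGF8 and part for the other 4 genes, whose dimmer measurements stayed within 0.17 of 0 h. Those of FGF13, FGFR1 and FGFR4 lay below background on all 24 arrays, where a change cannot be read.

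For 5 of the genes, 2 measurements annotated to different transcripts could be set side by side by their changes. The dimmer measurement of FGFR3 lay between 7.01 and 7.77 and above background on 20 of 24 arrays, and its means differed from 0 h by 0.02 at 12 h, 0.07 at 24 h, 0.17 at 36 h, 0.06 at 48 h and 0.16 at 72 h, where the brighter one differed by up to 1.04. The dimmer measurements of FGF13, FGFR1 and FGFR4 lay below background on all 24 arrays, so that no change can be read from them. With the mean of a gene's measurements in place of the brighter one, FGFR3 stood at 0.36 at 24 h (adjusted p = 0.114), FGFR4 at -0.21 at 24 h (adjusted p = 0.118) and FGFR1 at 0.22 at 36 h (adjusted p = 0.0749). Which probe sequences the measurements rest on is not given in the sources used here.

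Across the 24 arrays, FGFR1 and FGFR3 had the closest courses among the genes tested (Pearson r = 0.75, Spearman 0.84), and FGFR4 ran against FGFR3 (r = -0.58), FGF8 (-0.58) and FGFR1 (-0.48). These values describe 24 arrays that share 6 times, so any genes with a similar time course correlate. FGF8 lay above background on only 6 of the 24 arrays and was tested only through later ones. Its correlations therefore rest mostly on signals below background and are only a description. Of all genes tested, the closest to FGF8 were HESX1 (r = 0.93), an anterior neural transcription factor, FBN2 (0.93), the extracellular fibrillin-2, and FEZF1 (0.91), a forebrain repressor. Both HESX1 and FEZF1 are on the neural plate list. HESX1 stood 3.39 ± 0.32 higher at 72 h than at 0 h (SE; adjusted p = 1.11e-08). FEZF1 averaged 10.45 ± 0.30 at 72 h and 6.78 ± 0.30 at 0 h, where 1 of 4 arrays lay above background. FGFR4 was closest to IGFBP4 (0.92), which binds insulin-like growth factors, SPTSSB (0.92), a subunit of serine palmitoyltransferase, and SCARB1 (0.91), the HDL receptor. FGFR3 was closest to WDHD1 (0.89), a replication factor, SALL1 (0.89), a zinc finger transcription factor, and DOCK3 (0.88). FGF2 was closest to UGP2 (0.86), PPM1B (0.85) and PPIC (0.84), and FGFR1 to TRIM24 (0.85), DNMT1 (0.84) and HERC1 (0.83).

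The change in cell state over the same hours was visible in marker lists. Neural plate markers above background on 4 of 4 arrays numbered 9 of 12 at 72 h and 6 of 12 at 0 h, and their summed signal, on the log2 scale, spanned 15.12 to 15.39 at 72 h and 13.28 to 13.73 at 0 h. PAX6, a neuroectoderm factor, averaged 9.85 ± 0.55 at 72 h and 6.72 ± 0.32 at 0 h. Of 10 tested neural plate markers, 8 were higher at 72 h, 0 lower and 2 did not pass (18.5% of all genes tested were higher and 17.4% lower). Of 11 tested pluripotent markers, 5 were lower, 3 higher and 3 did not pass. NANOG had dropped below background on 4 of 4 arrays at 72 h, while POU5F1 still averaged 10.55 ± 0.29. SOX2, which is on both lists, was higher. The pluripotent list summed to 15.50 to 15.67 at 72 h and 15.72 to 15.93 at 0 h. The fibroblast list includes the collagen gene COL1A1, which averaged 10.28 ± 0.64 at 72 h and 10.46 ± 0.35 at 0 h. This list summed to 11.50 to 12.03 at 72 h and 12.42 to 12.64 at 0 h. At both times 4 of 7 genes lay above background on 4 of 4 arrays. Of its 4 tested genes, 1 was lower at 72 h, 0 higher and 3 did not pass, COL1A1 among them. The lower gene was THY1, at 9.56 ± 0.15 at 72 h and 11.51 ± 0.22 at 0 h (limma adjusted p = 8.41e-09). Summed levels at 72 h were 9.32 to 9.45 for primitive streak (9.50 to 9.77 at 0 h), 9.58 to 9.73 for endoderm (9.45 to 9.75), 9.60 to 9.67 for trophoblast and amnion (9.65 to 9.68) and 9.43 to 9.71 for neural crest (9.46 to 9.62). The part of these cell states in the FGF changes was not tested, and in bulk RNA fewer cells of a type and less RNA per cell cannot be told apart.

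The pathway around the 9 genes was read from lists chosen by function, and is given for 72 h beside the shares of all genes tested, of which 18.5% rose and 17.4% fell. The lists were not tested against each other. Of 17 other FGF family genes, not all of them secreted, 5 were tested. Of these 1 rose, 1 fell and 3 did not pass, with a median change of 0.05 where all genes tested had 0.01. FGF9, a secreted ligand of FGFR3 and other receptors, lay above background on 4 of 4 arrays at 72 h and on 0 at 0 h, and was at least 1.23-fold higher (adjusted p = 0.00625). FGF12, an intracellular relative of FGF13, fell by 0.44 ± 0.09 at 72 h (adjusted p = 0.000343) and by 0.49 ± 0.09 at 12 h (adjusted p = 0.00134). The other 12 genes of that list were too dim. Of a list of FGF13 partners, mostly voltage-gated sodium channel genes, only 1 was tested. It was the beta subunit SCN4B, which rose by 0.42 ± 0.15 (adjusted p = 0.0286). The other measured genes of that list, among them SCN1A, SCN2A, SCN3A, SCN8A and SCN9A, were too dim.

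Of 11 tested co-receptors and binding proteins, 3 rose, 2 fell and 6 did not pass at 72 h, when 18.5% of all genes tested rose and 17.4% fell, and their median was 0.20. FLRT3, a membrane protein that promotes FGF signalling in frog embryos, was below background on 4 of 4 arrays at 0 h and was at least 7.71-fold higher at 72 h (10.05 ± 0.43 at 72 h; adjusted p = 8.35e-10). It reached the 4 arrays needed for testing only with arrays at 36 h and later, where it was high, so its call is a description. The glypican GPC3 rose by 1.66 ± 0.17 and the N-cadherin CDH2, which also stands on the neural plate list, by 1.63 ± 0.20. FGFBP3, which releases FGFs from the matrix, fell by 1.33 ± 0.14 at 72 h and by 0.66 ± 0.14 at 12 h (adjusted p = 0.00564), when it was the only one of the 11 past the threshold. Of 13 tested genes of heparan sulfate synthesis and sulfation, 4 rose, 0 fell and 9 did not pass, beside the same 18.5% and 17.4%, with a median of 0.09. They were the sulfotransferase HS6ST2 (0.96 ± 0.17), NDST1 (0.34 ± 0.13), the sulfatase SULF2 (0.28 ± 0.10, and 0.33 at 12 h) and EXTL2 (0.27 ± 0.09). Arrays of 72 h and 0 h overlapped for the last 3 of these. SULF2 removes the sulfates that HS6ST2 adds.

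Of 12 tested genes of the relay from receptor to ERK, 1 rose (18.5% of all genes did), 2 fell (17.4%) and 9 did not pass at 72 h, with a median of 0.04. MAP2K1, the ERK kinase MEK1, fell by 0.48 ± 0.11 (adjusted p = 0.00126), the adaptor SHC1 fell by 0.40 ± 0.10 and the receptor substrate FRS3 rose by 0.36 ± 0.11. At 12 h limma called 0 of the 12, with an unadjusted p below 0.05 for 2 and the lowest adjusted p, 0.0906, for SHOC2. Of 20 tested feedback and target genes of FGF and ERK, 11 fell and 0 rose at 12 h and at 24 h. At 36 h, 15 fell and 1 rose, then 15 and 2 at 48 h and 15 and 3 at 72 h. Of all genes tested, 3.32% were lower at 12 h, 3.24% at 24 h and 9.07% at 36 h. At 48 h 10.5% were lower, and at 72 h 17.4%. In the same order of times, 2.76%, 3.97%, 7.96%, 10.7% and 18.5% were higher. The median change of the 20 genes was -0.57 at 12 h and -1.13 at 72 h, or -0.95 at 72 h with values below background set to it. The direction of this list was known from earlier results on these arrays and is given as a description.

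DUSP6, a phosphatase that switches off ERK, averaged 7.80 ± 0.85 at 12 h and 10.41 ± 0.52 at 0 h, and fell by 2.61 ± 0.26 (adjusted p = 8.17e-07). SPRY4, a sprouty inhibitor of receptor tyrosine kinase signalling, averaged 8.42 ± 0.43 at 12 h and 10.41 ± 0.27 at 0 h (adjusted p = 9.85e-08). By 72 h, 4 of 4 arrays had SPRY4 below background, at least 9.94-fold lower than at 0 h. The 3 that rose at 72 h were the ephrin receptor EPHA4 (3.74 ± 0.28), SHISA2, which holds FGF and Wnt receptors in the endoplasmic reticulum (3.51 ± 0.32), and the cyclin CCND1 (0.40; adjusted p = 0.0219). At 12 h, DUSP6 and SPRY4 had fallen while FGF2 (-0.05 ± 0.16), FGFR1 (-0.08 ± 0.11) and FGFR3 (-0.13 ± 0.18) had not passed and FGFR4 had fallen by 0.48.

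**Figure D4:**
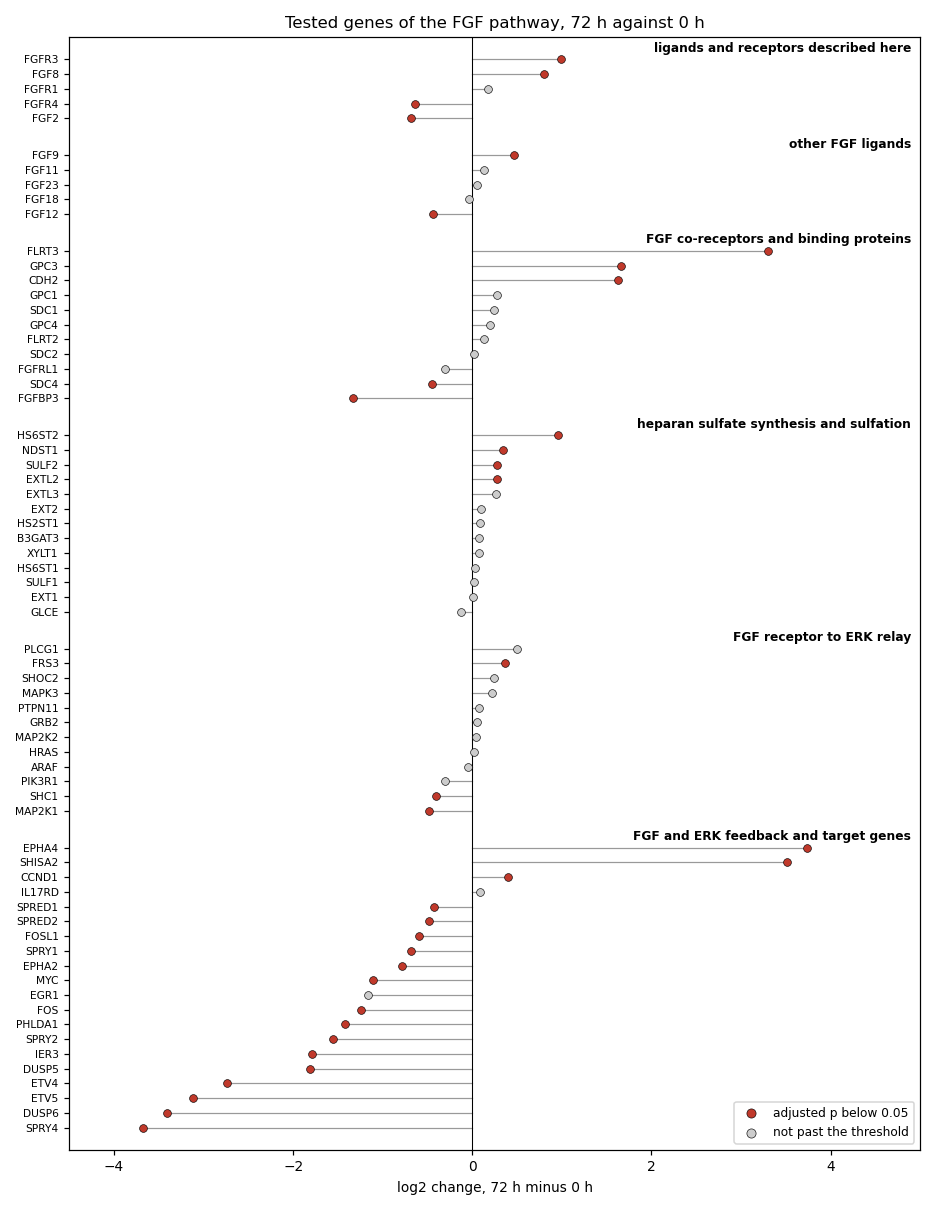
Log2 change between 72 h and 0 h (horizontal axis) for each tested gene of the FGF pathway lists, 1 line a gene, grouped by list. Red points passed at an adjusted p below 0.05 and grey points did not. EPHA4 lies farthest right at 3.74 and the ligands and receptors described here lie between -0.69 and 0.99. Differences are drawn as measured, also where 1 side lay below background, as for SPRY4 at 72 h, whose fall is known only as at least 9.94-fold.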

How the data were processed

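Per the labels, total RNA of H1 cells was hybridised to Illumina HumanHT-12 v4 bead arrays, 24 in all. The authors deposited log2 signals, 1 column an array, whose values lay between 5.57 and 15.51, with nearly equal medians (6.80 to 6.82). How these signals were normalized is not given in the sources used here. Another deposited table was not used, because none of its 48 value columns could be matched to a label. Rows with identical values in all 24 columns (10159 rows) were counted once per set. Symbols came from GEO's platform annotation, which named 26228 rows (26221 with 1 symbol, 7 with several) and left 11672 unnamed. Of the named rows, 26191 matched RefSeq by Entrez identifier and 0 symbols needed updating. Promoter sequences are RefSeq's, GRCh38.p14.

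Background, 7.10, is the 99th percentile of 387 olfactory receptor measurements, which stand in for silent genes (median 6.41). A gene was represented by its measurement with the highest mean and tested if above background on at least 4 arrays. A mean per time was fitted to 24 arrays (18 residual degrees of freedom) with limma 3.58.1 (lmFit, eBayes; R 4.3.3), and two-sided p-values were adjusted by Benjamini-Hochberg over all genes tested within each comparison, at 0.05. The script was tested on simulated data. Where a time had no array above background, a change is given as "at least" a fold against the background. Arrays carry no counts, and their number limits the precision.

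The 9 genes and the gene lists were chosen with earlier results of these data known. All 9 genes are named. From each list, up to 4 genes past the threshold with the largest change at 72 h and up to 2 at 12 h are named, and for each tested gene of the 9 the 3 genes with the highest correlation over 24 arrays. Marker lists are described by POU5F1, NANOG, SOX2, PAX6, TBXT, SOX17, GATA3 and COL1A1. CCND1, SHOC2 and CLEC2A fall outside this rule and were named after their values were seen. Alternatives were other filters on dim genes, a floor at background, quantile normalization or median centring applied again, the mean of a gene's measurements, the replicate number as a block, array weights, pairs of replicates, only the 2 times compared, and leaving out each array. After seeing the data, the 6 low-CLEC2A arrays were left out or set as a factor, and replicates 1 and 2 were set against 3 and 4 as a factor.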

Additional observations from a re-analysis of the deposited data

Results flagged for a closer look

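In 5 of 84 groups of 4 arrays, the highest or lowest array stood apart from the other 3 by Dixon's criterion. Chance gives about 1 in 20 such groups. FGF2 at 0 h was highest on replicate 2, at 10.48 against 9.91 to 10.01 on the others. FGFR3 at 48 h was lowest on replicate 4, at 11.20 against 11.63 to 11.67. FGFR3 at 72 h was lowest on replicate 2, at 11.26 against 11.56 to 11.58. These 3 arrays belong to the set with low CLEC2A. FGFR4 at 24 h was lowest on replicate 1, at 8.89 against 9.02 to 9.03. The dimmer FGFR4 measurement at 36 h was lowest on replicate 3, at 5.81 against 6.10 to 6.14, all below background.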

How the results depend on the processing

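No change of the 9 genes that was called turned its direction under any alternative run. Of 1080 single values with 1 array left out, 1054 kept their direction and side of the threshold, 18 lost the threshold and 8 gained it. Under the other settings these numbers were 583, 30 and 8 of 621. With 1 array left out, the genes called ranged from 0 to 1 for higher at 24 h, from 0 to 1 for the step from 12 to 24 h, from 1 to 3 for the step from 24 to 36 h (2 with all arrays) and from 0 to 1 for the step from 48 to 72 h. Within replicates 3 and 4 alone, the genes that varied over the course numbered 2 in place of 5. The 5 include FGF8, which was tested only through its later arrays. In these replicates, genes lower at 12 h numbered 0, those higher and lower at 24 h 0 and 0, higher at 36 h 1 and lower at 72 h 1. In the steps to 24 and 36 h, 0 and 1 changed. Within replicates 1 and 2 alone, 0 were lower at 12 h, 0 lower at 24 h, 1 higher at 48 h, and 0, 0 and 1 changed in the steps to 24, 36 and 72 h. These fits hold fewer arrays. With no filter on dim genes, 2 were lower at 12, 36 and 48 h and 3 at 72 h (2 with the filter), since FGF19 or FGF13 entered. When testing needed 20 arrays above background, or with values below background set to it, FGF8 was no longer called and 1 was higher at 48 h, 1 at 72 h and 1 changed in the step to 36 h. With the mean of a gene's measurements, 0 were higher and 0 lower at 24 h, and 0 and 1 changed in the steps to 24 and 36 h. With only the 2 times compared, 0 were higher and 0 lower at 24 h, and 0 and 1 changed in the steps to 24 and 72 h. Array weights gave 4 in the step to 36 h and 1 in that to 72 h. Without the 6 low-CLEC2A arrays, 0 were higher at 24 h and 1 changed in the step to 36 h. The shares of all genes called under these settings are not set beside the counts here. The counts therefore cannot be told apart from shifts across all genes. The cause of these shifts was not tested beyond the smaller fits and filters named. Array signal over background limits FGF8, FGF13 and FGF19, which stand near 7.10.

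The labels give the replicate numbers no meaning beyond a number, and the data did not pair the arrays throughout. Deviations of arrays with number 1 correlated between 0.137 and 0.443 (median 0.322), while those of numbers 2, 3 and 4 reached down to -0.284, -0.262 and -0.349 (medians -0.041, -0.026 and -0.006), against a median of -0.077 for different numbers. In all, 14 of 24 arrays correlated best with their own number, as a hint from the data only. With the replicate number as a block, 5 of 5 genes varied over the course and FGFR1 passed in the step from 24 to 36 h (0.31, adjusted p = 0.0262), which made 3 genes there. Both counts include FGF8, which was tested only through its arrays at 36 h and later. The share of all genes that passed under the block is not given here. No other call of the 9 genes differed under the block.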
